A study of Rattus norvegicus with 4 samples.

Results

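The 77 genes described here encode proteins of the cytosolic ribosome, and were taken from the 30708 symbols of each deposited table by their names alone: Rpl or Rps followed by a number and, for some, an a or x, together with Rplp0, Rplp1, Rplp2 and Rpsa. Of these, 46 encode proteins of the large subunit and 31 encode proteins of the small subunit. Fau, which encodes a ribosomal protein fused to a ubiquitin-like protein, has another kind of name and was kept apart. RNA-Seq had been performed on S16 cells, an immortalized rat Schwann cell line, that carried no engineered change. One population was at passage 9 and was the parental line of mutant clones that were not analysed here, and the other was at passage 39. Each population was grown in a T-75 flask, gave poly(A)-selected RNA from a TRIzol extraction, and is represented by 2 libraries that the labels call technical replicates, so that 4 libraries and 1 population per passage were available and no p-value was computed. Values are RPKM, reads per kilobase of gene per 1000000 reads, from reads that aligned to 1 place in the genome only.

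Each ribosome holds a single copy of nearly every ribosomal protein, and the stalk proteins P1 and P2 are the main exception. Mammalian ribosomal protein mRNAs are abundant, short and spliced, and typically start with a run of pyrimidines, the terminal oligopyrimidine (TOP) tract, through which the mTOR pathway adjusts their translation. Their abundance has also made them a frequent source of processed pseudogenes, intronless copies of the mRNA that are scattered over mammalian genomes. A short read that matches a gene and its copy equally well has no unique place and is dropped when only uniquely aligned reads are kept.

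The start of the mRNA is the sequence feature that these genes are best known to share. A window from 10 bases before to 20 bases after the annotated start, in the RefSeq annotation of the rat assembly GRCr8, was found for 62 of the 77 symbols in 63 entries. The windows below are shown because they include a stalk scaffold and 2 other highly listed genes, 3 genes with low values, and 2 genes listed at 0 in every library. Capitals mark the longest unbroken run of C and T in each window.
Rplp0 (chr12:46718371-46718400, minus strand): caccgcaCTTCTCTCgccaggcgtcctcat
Rps15 (chr7:10068096-10068125, minus strand): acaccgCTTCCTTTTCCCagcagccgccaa
Rpl10 (chrX:157205840-157205869, plus strand): gtgggagcgTCTCTTTTCCTCTggcgcggt
Rpl9 (chr14:43247580-43247609, plus strand): aggacgTTCTCTCTTTgccccatctactgc
Rps18 (chr20:4933735-4933764, plus strand): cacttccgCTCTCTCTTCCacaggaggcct
Rps9 (chr1:74430418-74430447, minus strand): cggccacgTTTCTCTTTgtcacgggcctga
Rplp2 (chr1:205975911-205975940, plus strand): cgCCgccggacgccgccgaggtcgcacgcg
Rps6 (chr5:106420521-106420550, minus strand): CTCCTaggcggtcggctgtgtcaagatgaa
The longest run had a median of 9 bases in the 63 windows and of 4 bases in the 33469 windows of all annotated genes. A run of at least 6 bases was present in 48 of the 63 windows (76.2%) and in 27.1% of all windows. Among genes listed under 10 RPKM, 16 of 23 windows (69.6%) held such a run, against 32 of 40 windows (80%) of genes at 10 RPKM or above. Low and high values were thus both found among genes with such a run, as Rps18 and Rps15 above show. The run was counted wherever it lay in the window, so it need not be a TOP tract. The windows follow the annotated start and say nothing of starts used in S16 cells.

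The 4 libraries did not group by passage. Read totals recovered from the RPKM values were 41.4 M and 35.1 M (M, 1000000) for the first and second technical replicates of passage 9, and 34.2 M and 41.1 M for those of passage 39. Read counts and lengths of genes are the smallest whole numbers that fit the values of all 4 libraries. The true ones can be multiples of them. Over the 71 ribosomal protein genes with enough reads, at least 20 in a pair of libraries, the mean chi-square of the read counts was 1.10 between the first replicates of the passages, where counting error alone gives a value near 1. It was 2.56 between the second replicates, and between 206 and 241 for any first replicate against any second one. Over all genes the corresponding means were 1.12, 1.36 and 60.5 to 67.2. Libraries with the same number from different passages were thus far more alike than the technical replicates of a passage, which goes against what the labels lead one to look for. The paper states that technical replicates were pooled and spread over sequencing lanes. Whether the number or the passage marks the separate cell populations cannot be told apart from these files. Comparisons by passage and by number below follow the labels. Each value below is given by library, in the order passage 9 first and second replicate, then passage 39 first and second replicate. Schwann cell markers were present in 8 of 8 cases, among them Egr2 at 8.39 RPKM and Sox10 at 176 RPKM. Neuron markers were at or near 0 (Rbfox3, Snap25 and Syt1, at most 0.0035 RPKM), and of 4 fibroblast markers Dcn and Lum were near 0 (0.0033 and 0.053 RPKM) while Pdgfra was at 5.35 RPKM and Col1a1, which Schwann cells can also express, at 3588 RPKM.

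To determine how evenly the components of this complex were listed, the level of each gene was examined first. Of the 77 genes, 31 were at 100 RPKM or above, 19 between 10 and 100, 20 between 1 and 10, and 7 below 1, by the mean over the libraries. They took 2.80, 3.49, 2.81 and 3.45% of all summed RPKM, and 0.857, 1.16, 0.857 and 1.14% of the reads assigned to genes. The 5 highest genes held 31.5% of the RPKM of all 77, and the 10 highest held 52.2%.

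**Figure D1:**
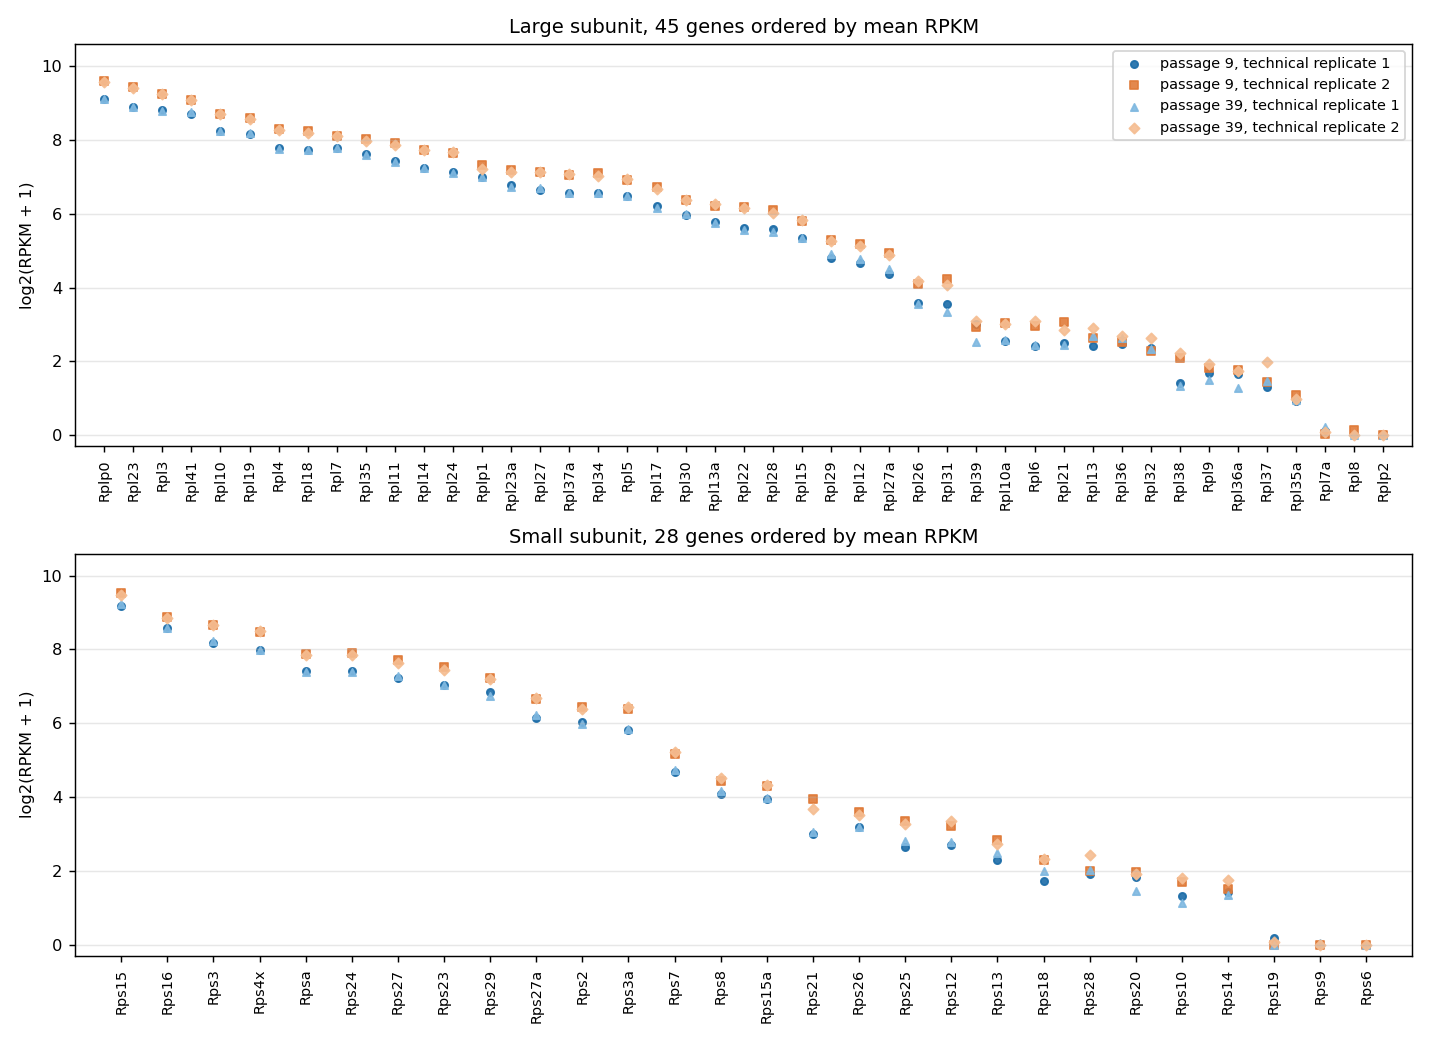
Level of 73 ribosomal protein genes as log2(RPKM + 1) in the 4 libraries, with 45 large subunit genes in the upper panel and 28 small subunit genes in the lower panel, each ordered by mean RPKM. Values fall from above 9 to 0 in both panels, and the second technical replicates (squares and diamonds) lie above the first (circles and triangles) for nearly all genes, with the passages close together.

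Among proteins near the catalytic centre of the large subunit, Rpl3 was listed at 445, 610, 444 and 603 RPKM. Rpl10, which joins the subunit late in its assembly, was at 300, 416, 303 and 414 RPKM. In both genes the second replicates were above the first, while the passages overlapped. Rpl23, on the face that meets the small subunit, was at 472, 691, 472 and 683 RPKM. Rpl41, the shortest ribosomal protein, was at 414, 544, 431 and 542 RPKM. Both again had higher values in the second replicates.

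The stalk recruits elongation factors to the ribosome, and its components were listed very unevenly. Rplp0, the scaffold that anchors the stalk, was at 548, 778, 548 and 764 RPKM, from 24807, 29846, 20516 and 34293 reads. Rplp1, which binds this scaffold as a partner of Rplp2, was at 127, 158, 127 and 147 RPKM. Rplp2 was listed at 0 in all 4 libraries. For a gene of 1000 bases, 3 reads would correspond to 0.0725 to 0.0876 RPKM in these libraries, a limit for counting error only, and the length used for Rplp2 could not be recovered from zeros. Rpl5 and Rpl11, which together with the 5S rRNA form a particle that can bind Mdm2 and so restrain p53 turnover, were both well covered. Rpl5 was at 88.3, 120, 89.2 and 123 RPKM, and Rpl11 at 170, 239, 169 and 233 RPKM.

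Among small subunit genes, Rps15, whose protein sits in the head near the decoding centre, was highest, at 576, 742, 595 and 707 RPKM. Rps16 was at 382, 467, 384 and 459 RPKM. Rps3, at the mRNA entry, had a mean of 350 RPKM. As in the large subunit, the second replicates were the higher ones in both passages. Rps27a, which encodes a fusion with ubiquitin, had a mean of 86.6 RPKM, and Fau had one of 52.0 RPKM.

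At the other end, 7 genes were listed below 1 RPKM on average. Rps6, whose protein is the phosphorylation target of S6 kinase and is needed for small subunit assembly, was at 0 in all 4 libraries, as was Rplp2. Rps9, which lies at the mRNA entry, was supported by 1 read in the first library of passage 39 (0.039 RPKM) and by none in the other libraries. Rpl8, a core protein beside the catalytic centre, had 3 reads in the second library of passage 9 (0.103 RPKM) and none elsewhere. Rps19, the gene most often mutated in Diamond-Blackfan anaemia, had 3, 0, 0 and 1 reads. Rpl7a had 3, 1, 5 and 2 reads (0.085, 0.034, 0.172 and 0.057 RPKM). Rpl35a was at 0.903, 1.15, 0.923 and 0.979 RPKM. For the 4 genes with a few reads, the highest upper bound of the 95% exact Clopper-Pearson intervals over all libraries was 0.401 RPKM, for Rpl7a in the first library of passage 39. In the same libraries 31 other genes of this complex were listed at a mean of 100 RPKM or above.

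A further 20 genes were listed between 1 and 10 RPKM. The lowest of them were Rps14, a platform protein whose gene is lost in the 5q deletion syndrome of the bone marrow, at 1.67, 1.85, 1.54 and 2.38 RPKM, and Rps10, a protein of the head, at 1.51, 2.28, 1.20 and 2.51 RPKM. Rpl37 was at 1.45, 1.71, 1.76 and 2.93 RPKM, for which 11, 11, 11 and 22 reads were the smallest counts that fit. Small numbers of reads leave wide intervals for such genes. At these smallest counts, that of Rpl37 ran from 0.725 to 2.60 RPKM in the first library of passage 9. In the second library of passage 39 it ran from 1.83 to 4.43 RPKM. Counts that are a multiple of these would give narrower intervals. Rpl36a was at 2.13, 2.39, 1.44 and 2.33 RPKM. Rpl9 was at 2.21, 2.52, 1.82 and 2.82 RPKM. For both genes the first library of passage 39 was the lowest. Rps20 was at 2.55, 2.89, 1.74 and 2.76 RPKM, with the same library lowest. Rpl38, which affects the translation of Hox mRNAs in mouse embryos, was at 1.66, 3.27, 1.53 and 3.67 RPKM, so that both second replicates were well above both first ones.

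In the small subunit, Rps28 was at 2.78, 3.03, 3.10 and 4.38 RPKM and Rps18, a head protein that contacts the large subunit, at 2.34, 3.95, 2.98 and 4.04 RPKM. Rps13 was at 3.89, 6.10, 4.65 and 5.58 RPKM. Of these 3 genes, Rps18 and Rps13 had both second replicates above both first ones, and Rps28 did not. Rps12 was at 5.49, 8.38, 5.94 and 9.13 RPKM. Rps25, which is needed for translation from some viral entry sites, was at 5.28, 9.14, 5.96 and 8.73 RPKM. Rps26, a protein at the mRNA exit, was at 8.14, 11.1, 8.16 and 10.4 RPKM. All of them were higher in the second replicates.

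In the large subunit, Rpl32 was at 4.11, 3.89, 4.10 and 5.24 RPKM and Rpl36 at 4.51, 4.78, 5.21 and 5.42 RPKM. Rpl13 was at 4.34, 5.19, 5.40 and 6.47 RPKM. Neither Rpl13 nor Rpl36 separated by replicate number, and for both the passage 39 libraries were the higher ones. Rpl21 was at 4.62, 7.46, 4.48 and 6.20 RPKM. Rpl6 was at 4.37, 6.72, 4.42 and 7.60 RPKM. Rpl10a, a protein of the L1 stalk through which spent tRNA leaves, was at 4.83, 7.22, 4.94 and 7.13 RPKM. Rpl39, which lines the exit tunnel, was at 7.10, 6.64, 4.74 and 7.57 RPKM, and its replicates overlapped.

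The spread among these genes was set beside that of other complexes whose subunits are present in fixed numbers. The standard deviation of log2(mean RPKM + 1) was 2.64 over the 72 genes above 0 in every library, and 2.62 to 2.69 within single libraries. It was 1.37 for the 14 genes of the 20S proteasome core, 0.68 for the 8 genes of the CCT chaperonin, which folds actin and tubulin, and 0.90 for the 69 of 73 mitochondrial ribosomal protein genes above 0. The upper quartile was 31.5 times the lower one for the cytosolic ribosome, and 2.19, 1.78 and 2.40 times for the others. No test was made of these differences, because the genes of a complex are not replicates. Where only the 50 genes at 10 RPKM or above were kept, the standard deviation was 1.68.

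**Figure D2:**
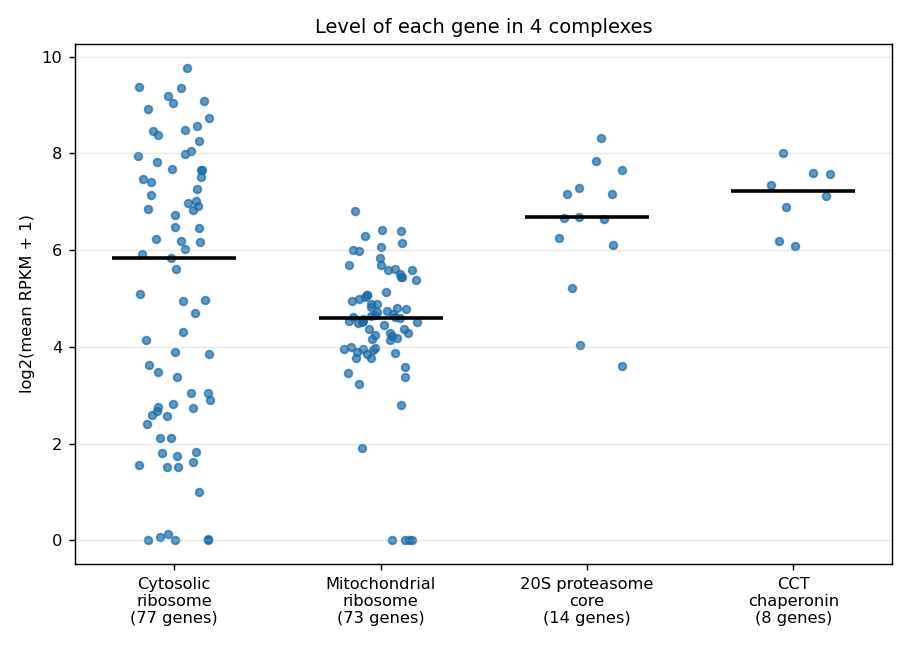
Level of each gene as log2(mean RPKM + 1) in the cytosolic ribosome (77 genes), the mitochondrial ribosome (73), the 20S proteasome core (14) and the CCT chaperonin (8), 1 point per gene, with bars at the medians. Points are spread sideways for visibility only, and cytosolic ribosomal protein genes fill the scale from 0 to near 10 whereas most genes of the other complexes lie within a few log2 units of their median.

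The complexes also differ in how many loci carry the name of a member with a suffix for a copy. In the RefSeq gene table of GRCr8, 1110 loci are named as a ribosomal protein gene of the list followed by l, -l or -ps and a number, and 225 of these are annotated as protein-coding. Each of the 77 genes has at least 1, with a median of 15 and a range of 1 (Rpl41) to 36 (Rps2). The median is 1.5 for the proteasome core, 2 for the chaperonin and 0 for the mitochondrial ribosome. Some of these names denote expressed paralogs rather than pseudogenes, such as Rps27l, Rpl7l1 and Rpl22l1, which were listed at 161, 52.7 and 31.1 RPKM. The other paralogs examined (Rpl3l, Rpl10l, Rpl36al, Rpl39l and Rps4y2) were below 1 RPKM.

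Within the cytosolic ribosome the relation between copies and level was weak. The 20 genes with 0 to 9 like-named loci had a median of 174 RPKM, with 5 genes under 10 RPKM. The 26 genes with 10 to 15 loci had a median of 51.8 RPKM, and 9 were under 10 RPKM. The 31 genes with 16 loci or more had a median of 18.9 RPKM, and 13 were under 10 RPKM. Thus the medians were lower where there were more copies, but the ranges overlapped almost fully: Rpl8, Rplp2 and Rps14 have 5 or 6 like-named loci each, and Rps15, at 655 RPKM, has 18. Spearman's rho between level and number of loci was −0.18 over the 77 genes and −0.29 with protein-coding loci only. Level and the smallest fitting length gave a rho of 0.32 over the 75 genes with a recovered length (183 to 1933 bases, median 619). These values describe genes measured in the same libraries and carry no p-value.

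A more direct comparison was possible where a like-named locus was itself listed in the tables. This was the case for 129 loci of 52 genes, of which 102 were matched through the gene ID in their symbol and 27 by symbol. The names of 127 carry a copy suffix as defined above, and the other 2 are separately listed loci whose gene ID now bears the name Rps4x or Rps27a itself (2.81 and 2.07 RPKM). Of the 129 loci, 43 were at 1 RPKM or above, 23 at 10 or above and 18 at 0. Their summed level was 1875 RPKM, or 17.9% of the 10499 RPKM of the ribosomal protein genes. This sum, like the addition of loci to their genes below, includes the expressed paralogs Rps27l, Rpl7l1 and Rpl22l1. A locus was listed above its own gene in 16 cases, which involved 13 genes: 9 of the 27 genes under 10 RPKM and 4 of the 50 genes at 10 RPKM or above.

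The stalk gene Rplp2, listed at 0, is 1 of these 13. A locus now named Rplp2l2, annotated as protein-coding, was at 59.7, 82.2, 58.5 and 78.8 RPKM in the same libraries. Likewise the pseudogene Rpl8-ps7 was at 47.0, 65.7, 48.0 and 63.0 RPKM, while Rpl8 itself had 3 reads in all. Both loci were above their gene in every library. Rps14-ps7 was at 96.7, 122, 98.3 and 120 RPKM beside Rps14 at a mean of 1.86 RPKM. Rps13-ps10 was at 91.9, 122, 89.2 and 114 RPKM beside Rps13 at 5.05 RPKM. Rps18l1 was at 46.3, 61.4, 43.9 and 60.1 RPKM beside Rps18 at 3.33 RPKM. In each pair the locus was above the gene in all 4 libraries. The same held for the means of Rps10l1 (41.7 RPKM, beside 1.87 for Rps10), Rps25-ps11 (60.6 beside 7.28 for Rps25) and Rps12l8 (22.4 beside 7.23 for Rps12).

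Among the genes with more reads of their own, Rpl30l2 was at 298 RPKM beside Rpl30 at 72.0 RPKM. Rps24-ps15 (241 RPKM beside 201 for Rps24) and Rps7-ps23 (41.7 beside 30.3 for Rps7) were closer to their genes. A further 4 loci, 1 more of Rplp2 and 3 of Rps19, were all below 1 RPKM. When the listed like-named loci were added to their genes, 17 genes instead of 27 were under 10 RPKM and 4 instead of 7 were under 1 RPKM. The standard deviation of the levels over all 77 genes was then 2.60 instead of 2.89. Only 3474 of the 11406 symbols of the LOC type could be matched to current names (30.5%), so other copies may be listed under names not resolved here. The 4 genes that stayed under 1 RPKM, Rps6, Rps9, Rpl7a and Rpl35a, had no matched like-named locus. Rps19 together with its 3 loci was at 1.76 RPKM. Which transcripts the reads of these loci came from was not tested.

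**Figure D3:**
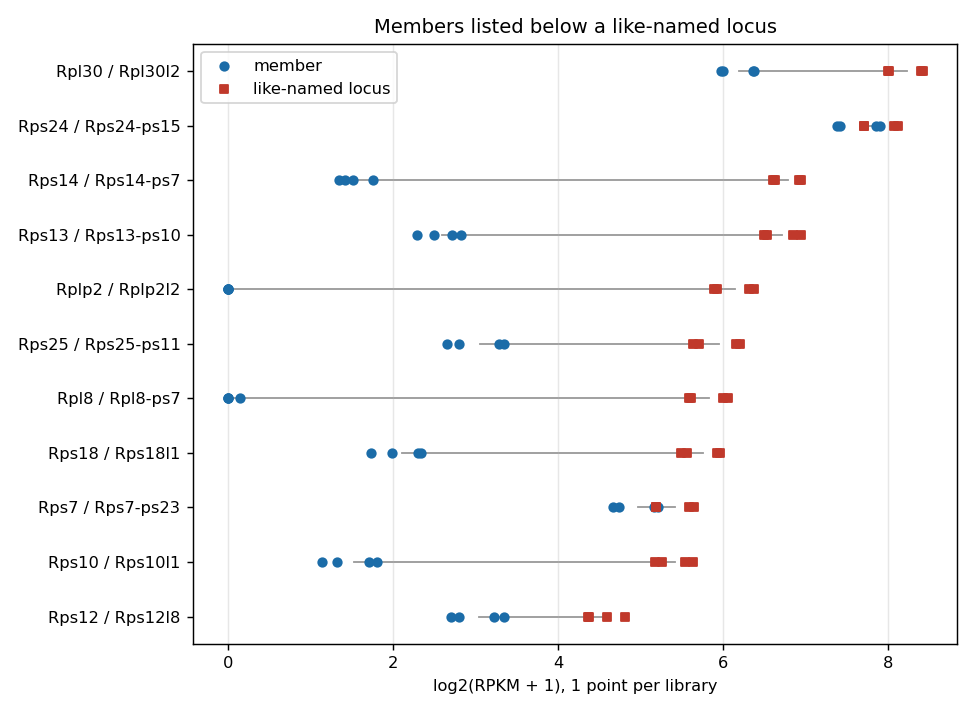
log2(RPKM + 1) in each of the 4 libraries for 11 ribosomal protein genes (circles) and the like-named locus of at least 1 RPKM listed above each of them (squares), joined by a line. The locus points lie to the right of the gene points with no overlap for all pairs except Rps24 with Rps24-ps15 and Rps7 with Rps7-ps23, where the ranges meet.

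Large and small subunit genes were then compared. The median was 57.7, 77.8, 58.0 and 78.6 RPKM for the 44 large subunit genes above 0 in all libraries, and 40.2, 59.0, 41.3 and 59.7 RPKM for the 28 small subunit genes. The difference of the log2 medians was 0.62, 0.52, 0.58 and 0.51, and 0.54 for the means over the libraries. The direction was not a stable feature of the subunits. Among genes at 10 RPKM or above (31 large, 19 small) the difference was −0.30, with the small subunit the higher one. With like-named loci added it was −0.030, over a set that then also held Rplp2, Rpl8 and Rps19. Each subunit held genes of every class: 15 large and 12 small subunit genes were under 10 RPKM, and 20 large and 11 small subunit genes were at 100 RPKM or above.

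To examine whether the level of these genes changed with passage, passage 39 was compared with passage 9 for the 70 genes that averaged 1 RPKM or more. The median difference on the log2(RPKM + 1) scale, which understates the change of low genes, was −0.0067, beside −0.0021 for all 11025 genes at that level. Among the 50 genes at 10 RPKM or above the median absolute difference was 0.025 and the largest was 0.19 (Rpl31, lower at passage 39). A difference of 0.32 on this scale, or 25%, was used as a threshold. Only Rpl37 was higher at passage 39 by this threshold, as were 0.0816% of all genes. Its smallest fitting counts were the 11, 11, 11 and 22 reads given above. No ribosomal protein gene was lower by 0.32 or more (0.0363% of all genes), and none differed 2-fold (0.00907% of all genes). Both passage 39 libraries were above both passage 9 libraries for 4 genes, Rpl13, Rpl36, Rps28 and Rpl37 (3.1% of all genes), and below them for none (3.11% of all genes).

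The 5 largest differences were all in genes under 20 RPKM: Rpl37 (0.37), Rps28 (0.28), Rpl13 (0.27), Rps20 (−0.19) and Rpl31 (−0.19). Rpl31, a protein at the tunnel exit, was at 10.7, 17.9, 9.18 and 15.7 RPKM, so that its passages overlapped. In Rps28 the second replicates carried most of the difference (0.42, against 0.12 between the first replicates), and in Rpl13 both contributed equally (0.27 and 0.26). Rplp0, whose level rests on the read counts given above, differed by −0.016 between the passages. The passage comparison depends on balanced libraries, since leaving out 1 library shifted its median to between −0.25 and 0.25 and left 4 to 14 genes past 0.32.

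The technical replicate number separated these genes far more than the passage did. In the second replicates the median of the 70 genes was 0.46 higher on the log2(RPKM + 1) scale, and the median fold among the 50 genes at 10 RPKM or above was 1.39. The difference was positive for all 70 genes, from 0.056 (Rpl36) to 0.80 (Rps21), and positive within both passages for 68. All genes together had a median of 0.10, and 64.1% were positive. Within both passages 6535 of the 11025 were positive. Of the 70 genes, 58 were higher by 0.32 or more in the second replicates, against 19.3% of all genes, and none was lower by as much, against 10.1% of all genes. On this scale none reached 2-fold (1.09% of all genes), while Rpl38 was 2.17-fold higher as a plain ratio of mean RPKM. Both second replicates were above both first replicates for 64 genes (57.2% of all genes) and below them for none (30.5% of all genes).

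**Figure D4:**
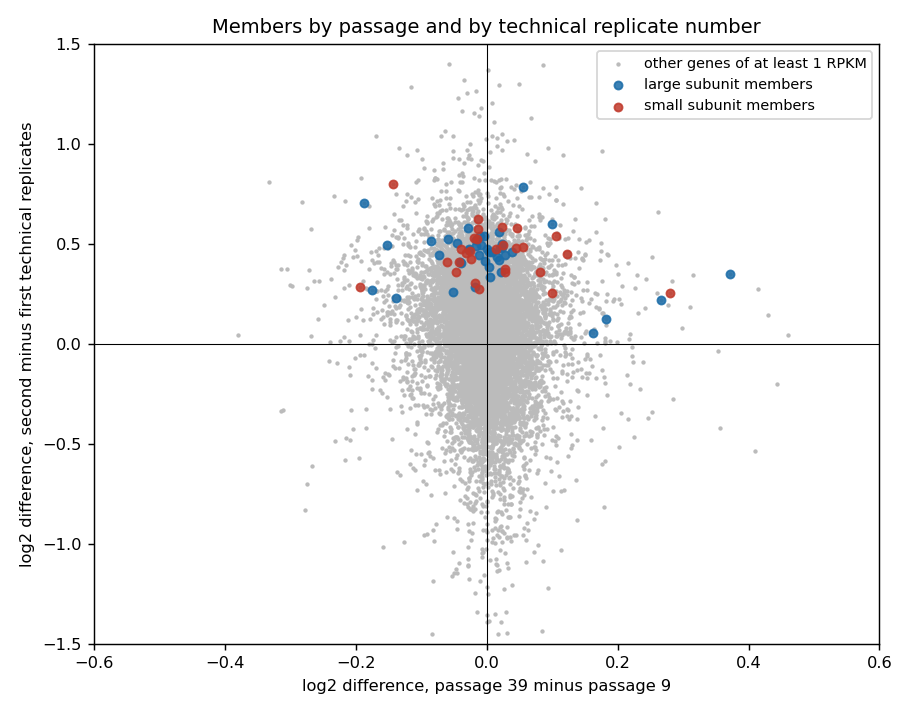
Log2 difference between passages (39 minus 9, horizontal axis) and between technical replicate numbers (second minus first, vertical axis) for large and small subunit genes and for all other genes of at least 1 RPKM, with 42 other genes outside the axes. The ribosomal protein genes form a cloud near 0 horizontally and near 0.46 vertically, above the middle of the other genes.

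The increase was of similar size from gene to gene. Among the 50 genes at 10 RPKM or above it had a standard deviation of 0.096 and spanned 1.20-fold to 1.84-fold. Large and small subunit genes both had a median of 0.46. On the log2(RPKM + 1) scale the largest difference belonged to Rps21, at 7.01, 14.4, 7.28 and 11.9 RPKM. It was followed by Rpl38 (0.78) and Rpl31 (0.70), whose values are given above. Rpl6 (0.60) and Rps25 (0.58) were also among the 10 largest. Rps3a was at 55.9, 83.1, 56.9 and 86.6 RPKM, a difference of 0.58. Rpl22, an RNA-binding protein whose loss mice survive, was at 48.0, 71.6, 46.6 and 70.6 RPKM, also 0.58. In all of these genes the first and second replicates did not overlap.

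Rpl26, a protein beside the tunnel exit, was at 11.1, 16.3, 10.8 and 17.0 RPKM, a difference of 0.56. The smallest differences were those of Rpl36 (0.056), Rpl32 (0.13), Rpl13 (0.22), Rpl39 (0.23), Rps28 (0.26), Rps14 (0.26), Rplp1 (0.26), Rpl36a (0.27), Rps16 (0.27) and Rps20 (0.28). Most of these are genes under 10 RPKM with few reads, and the log2(RPKM + 1) scale understates their differences. As a plain ratio of mean RPKM, Rps14 was 1.32-fold higher, against 1.24-fold for Rps15, which is not in this list. Rps16 and Rplp1 are not under 10 RPKM. In these highly listed genes the second replicates were consistently but modestly above the first, in both passages. The median was 0.49 within passage 9 and 0.45 within passage 39. The rank order of the genes was partly shared between the passages, with a Spearman's rho of 0.49 over 70 genes and 0.70 over the 50 genes at 10 RPKM or above.

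Other groups of genes moved the same way with the number. The medians were 0.43 for the proteasome core (14 of 14 genes positive), 0.39 for the chaperonin (8 of 8), 0.33 for the mitochondrial ribosome (68 of 69) and 0.28 for ribosome biogenesis factors such as Fbl and Dkc1 (19 of 20). Elongation factors and other genes with TOP mRNAs, such as Eef2 and Tpt1, had a median of 0.38 (14 of 14), and the 540 other genes at 100 RPKM or above had one of 0.22. The 43 like-named loci at 1 RPKM or above were all higher in the second replicates, with a median of 0.39 and a range of 0.12 to 0.81. Schwann cell markers were mixed, with a median of −0.44. Of the 8, 5 were lower by 0.32 or more (10.1% of all genes), of which S100b had the largest difference (−1.39). The others, Egr2 (0.73), Pmp22 (0.080) and Sox10 (0.056), were higher. The median recovered length of the 8 markers was 2996 bases. The differences between these groups were not tested.

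The number also moved with gene length over the whole table. Genes of at most 1000 bases other than ribosomal protein genes had a median of 0.27, and the longest genes were lower in the second replicates. When the median of all genes of similar length was subtracted from each gene, the median of the ribosomal protein genes was 0.20, 62 of 70 remained positive, and 6 were past 0.32, against 6.46% of all genes. Rescaling also changed the size but not the sign of the median. With every library scaled to the same summed RPKM it was 0.33, with 36 genes past 0.32, against 9.27% of all genes. With scaling by the median ratio it was 0.37, with 47 genes past it, against 11.3% of all genes. Under either scaling 69 of 70 genes were positive, where the medians of all genes were −0.026 and 0.027. Relative to the median of all genes, the ribosomal protein genes were 0.36 higher as deposited and 0.35 higher under both scalings. The read total was higher in the first replicate at passage 9 and in the second at passage 39. The part of read depth, RNA quality and library preparation in the difference was not tested.

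**Figure D5:**
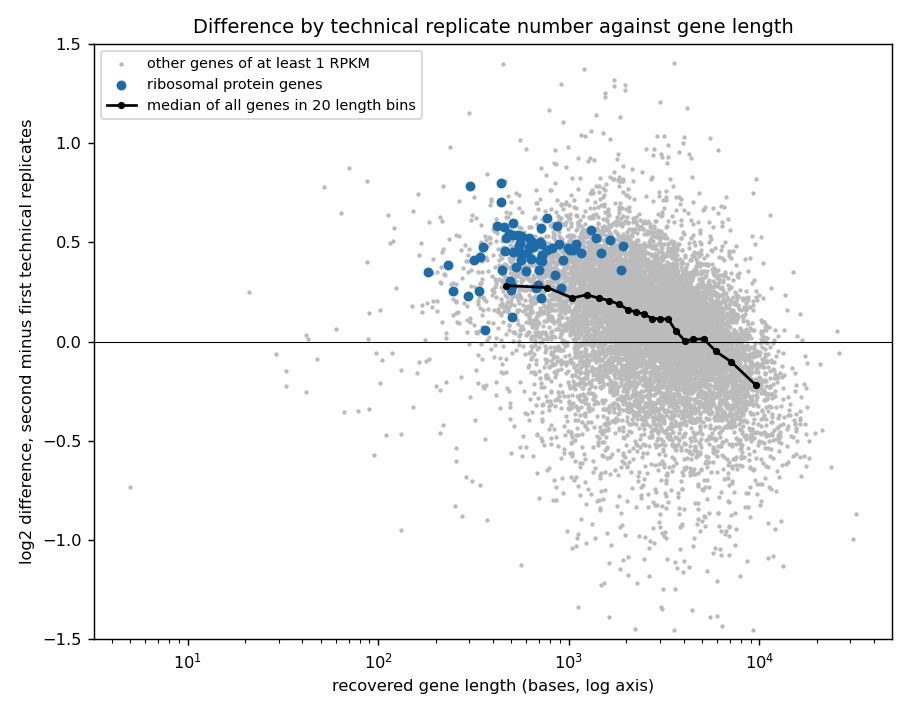
Log2 difference between second and first technical replicates against recovered gene length in bases (log axis) for the ribosomal protein genes and all other genes of at least 1 RPKM, with the median of all genes in 20 bins of length as a line and 40 genes outside the axis. The ribosomal protein genes are short and lie mostly above the line, which falls from 0.28 in the shortest bin to below 0 for the longest genes.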

How the data were processed

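RNA-Seq libraries from unmodified S16 cells at passage 9 and passage 39 were analysed, with 2 libraries labelled as technical replicates per passage. According to the methods and the processing notes, the authors sequenced single 50-base ends, checked them with FastQC, aligned them to the rat genome (rn5) with STAR, retained only reads with 1 alignment and used HTSeq to obtain unstranded gene counts. The authors deposited RPKM values per gene symbol. The lengths and totals behind them are not given in the sources used here. Reads of overlapping genes or near-identical copies can therefore be lost or assigned to another locus.

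Library totals (34.2 to 41.4 M) and whole reads were recovered from ratios of the deposited RPKM values for 20332 of 20333 genes above 0. For each gene the smallest length that gave whole reads in all libraries was taken. Where the true length and reads are a multiple, the intervals given here are too wide and the chi-squares too low. Comparisons by length use these smallest lengths. The recovery was tried on data simulated from the recovered lengths and totals, which cannot show that these are the true ones. Intervals are exact Clopper-Pearson intervals at 95% and cover counting error only. Differences were computed on the log2(RPKM + 1) scale for genes averaging 1 RPKM or more, with a log2 difference of 0.32 (25%) and a 2-fold difference as thresholds, in Python 3.11.15 with numpy 2.4.6, pandas 2.3.3, scipy 1.17.1 and matplotlib 3.10.9. With 1 population per passage no test across genes was possible. Like-named loci and start windows were taken from RefSeq tables of GRCr8, and no coordinates of rn5 were used. All members may be named, but results of some genes and loci are not reported here. Values in each library are given for members listed under 10 RPKM in any library, the 10 highest and 10 lowest, the stalk and 5S particle genes, and the largest differences by passage (5) and by number (10 in each direction). The members, gene lists and comparisons were chosen with earlier results of these data known. Other scalings, pseudocounts, filters and left-out libraries were tried.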

Additional observations from a re-analysis of the deposited data

Results flagged for a closer look

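In a group of 4 libraries, 1 value can stand apart from the other 3, and chance alone marks about 1 in 20 groups in this way. All 77 ribosomal protein genes were screened in this way, and only Rpl32, Rpl8 and Rps9 were marked. That is no more than chance alone would give. Rpl32 stood out through the second library of passage 39, at 5.24 RPKM against 3.89 to 4.11 RPKM in the others. The gap made up 0.837 of the whole range. Rpl8 and Rps9 were above 0 in 1 library each, so that the gap was the whole range (1 in both cases), and they rested on 3 reads and 1 read.

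For Rpl32 the second minus first difference on the log2(RPKM + 1) scale was −0.064 at passage 9 and 0.29 at passage 39. Rpl39 likewise had a difference of −0.084 at passage 9 and 0.58 at passage 39. The differences between passages were not tested, and Rpl32 had 69 to 109 reads and Rpl39 had 48 to 92 reads per library.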

How the results depend on the processing

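No paired analysis was possible because no result comes from a test, with 1 population per passage, and differences within a replicate number are given as values. The spread of the levels (2.64) was 2.78 with libraries rescaled to the same sum, 2.87 with a pseudocount of 0.1 RPKM, 2.54 for genes of at least 1 RPKM, 1.68 for genes of at least 10 RPKM, 3.54 when estimated from the interquartile range, 2.45 with like-named loci added, and 2.63 to 2.66 without single libraries. The large minus small subunit difference (0.54) was 0.77 for genes of at least 1 RPKM, −0.30 for genes of at least 10 RPKM, 0.67 with effective lengths, 0.19 between means, −0.030 with like-named loci added and 1.65 over all 77 genes. The share of these genes (3.14% of summed RPKM) was 1.00% of assigned reads. The passage median (−0.0067) was 0.0025 between the first replicates alone and −0.016 between the second alone, and ranged from −0.25 to 0.25 without single libraries, and the 1 gene past a difference of 0.32 became 2 with rescaling to the same sum or the smaller pseudocount, 0 among genes averaging 5 RPKM or more, and 4 to 14 without single libraries. In those cases 1 passage is represented by 1 replicate number only. The replicate number median (0.46) was 0.33 and 0.37 under the other scalings, 0.49 within passage 9, and 0.20 relative to genes of similar length, where 52 genes no longer passed 0.32. The count of 58 genes became 36 with rescaling to the same sum, where 9.27% of all genes were higher by 0.32 or more. The rho between level and like-named loci (−0.18) was −0.29 with protein-coding loci only. The addition of the loci to the genes, the subunit difference over all 77 genes and the minimum of 10 RPKM for the number median were chosen after seeing the data. With the loci added, Rplp2, Rpl8 and Rps19 were above 0 in every library and entered the spread and the subunit difference. Most values of the genes under 1 RPKM rest on 3 reads or fewer, and why these genes were listed so low was not tested.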

Other observations

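The standard deviation of log2(mean RPKM + 1) was 1.21 for 20 ribosome biogenesis genes and 1.67 for 14 translation factor and TOP mRNA genes above 0 in every library, beside 2.64 for the ribosomal protein genes, and these differences were not tested. Of 21 ribosome biogenesis genes, 20 were at 1 RPKM or above, with a median of 31.0 RPKM over all 21, and Nhp2, a component of H/ACA particles that guide pseudouridylation, was at 0.017 RPKM while its partner Dkc1 was at 62.0 RPKM. Of 15 translation factor and TOP mRNA genes, 14 were at 1 RPKM or above, with a median of 148 RPKM. Eef2, which moves the ribosome along the mRNA, was highest at 1058 RPKM, and Eif3h, a subunit of initiation factor 3, was at 0.043 RPKM while Eif3f was at 127 RPKM. Gnb2l1, which encodes the scaffold Rack1 on the small subunit, was at 349 RPKM.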
